A study of Saccharomyces cerevisiae with 232 samples.

Results

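The lysine synthesis genes of budding yeast, Saccharomyces cerevisiae, were followed through all strains of a survey of tRNA modification: LYS1, LYS2, LYS4, LYS5, LYS9, LYS12, LYS14, LYS20 and LYS21. They were chosen by name and are 9 of the 6692 genes in the deposited expression tables. All 9 were measured both as ribosome-protected footprints, the stretches of mRNA covered by translating ribosomes, and as total RNA. Values are RPKM, reads per kilobase of gene and per fixed number of mapped reads, so levels are per gene length.

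The series asked how translation responds to deletion of genes for tRNA modification. All strains derive from BY4741, a haploid laboratory strain of mating type a that is mutant in HIS3, LEU2, MET17 and URA3 and keeps LYS2. Each deletion strain lacks 1 further gene and is named by it with a D, so that elp3D lacks ELP3. Cells grew in rich medium (YPD) at 30 °C. The labels give 100 µg/mL cycloheximide, which stalls elongating ribosomes, for 30 s before harvest, for footprint and RNA samples alike. There were 127 such footprint libraries, 14 of wild type and 113 of 57 strains (2 for each of 56 strains, 1 for kti13D), and 67 RNA libraries, 10 of them wild type and the others 1 per strain. Another 6 footprint libraries, from wild type and 5 strains, were made without the drug. The Elongator group holds 9 strains, each lacking a subunit or partner of the complex, among them elp3D, kti11D, kti12D and kti13D, the thiolation group 5 strains lacking URM1, UBA4, NCS2, NCS6 or TUM1, and the KEOPS group 3 strains lacking BUD32, GON7 or CGI121. The labels do not say whether libraries of a strain came from separate cultures or clones, so p-values measure the spread between libraries, which may be technical.

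Yeast builds lysine by the alpha-aminoadipate pathway, found in fungi. Homocitrate synthase (LYS20 and LYS21, a pair of near-identical copies) joins 2-oxoglutarate to acetyl-CoA, homoaconitase (LYS4) and homoisocitrate dehydrogenase (LYS12) carry the product on to 2-oxoadipate in mitochondria, and after transamination LYS2 reduces aminoadipate to its semialdehyde. LYS5 attaches the phosphopantetheine arm that LYS2 needs, LYS9 forms saccharopine and LYS1 splits it to give lysine. LYS14 encodes the pathway's own transcription activator, which responds to the semialdehyde, and GCN4 encodes the activator of general amino acid control, whose own translation rises when uncharged tRNA or other signals lower initiation. Elongator and the thiolation enzymes modify the wobble uridine of tRNAs that include the lysine tRNA reading AAA, and KEOPS modifies the adenosine beside the anticodon in tRNAs for codons starting with A, those for lysine among them.

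The upstream sequences are shown because many members moved together across strains and Gcn4 and Lys14 are the known activators of the pathway. The letters TGACTC, the core bound by Gcn4, and TCCNNNGGA, a loose spelling of the element bound by Lys14, were searched on both strands in the 300 bases before each start codon, and the matches are in capitals. The 5 members with a match are printed from 300 to 101 bases before the start codon, 5′ to 3′ along the gene's own strand, from build R64 (sacCer3): LYS12 (chrIX:187733-187932, minus strand), LYS2 (chrII:474027-474226, minus), LYS9 (chrXIV:715489-715688, minus), LYS1 (chrIX:420837-421036, minus, which runs into the neighbouring gene NRE1) and LYS14 (chrIV:512210-512409, minus).
LYS12: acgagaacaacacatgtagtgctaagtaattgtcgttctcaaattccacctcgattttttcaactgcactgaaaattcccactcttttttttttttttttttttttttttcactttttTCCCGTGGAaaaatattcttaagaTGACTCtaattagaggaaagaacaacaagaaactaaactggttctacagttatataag
LYS2: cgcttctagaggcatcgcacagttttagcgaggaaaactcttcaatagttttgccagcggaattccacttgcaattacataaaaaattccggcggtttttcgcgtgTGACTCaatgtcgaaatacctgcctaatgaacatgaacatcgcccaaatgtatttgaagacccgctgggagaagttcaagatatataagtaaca
LYS9: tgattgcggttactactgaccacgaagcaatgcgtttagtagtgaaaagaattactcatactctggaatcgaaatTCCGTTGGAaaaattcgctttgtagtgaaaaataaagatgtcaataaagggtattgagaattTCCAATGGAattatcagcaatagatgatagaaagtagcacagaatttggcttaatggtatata
LYS1: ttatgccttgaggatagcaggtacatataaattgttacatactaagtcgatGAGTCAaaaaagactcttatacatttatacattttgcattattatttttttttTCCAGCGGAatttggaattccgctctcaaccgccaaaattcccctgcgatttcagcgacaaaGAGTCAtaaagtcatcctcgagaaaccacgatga
LYS14: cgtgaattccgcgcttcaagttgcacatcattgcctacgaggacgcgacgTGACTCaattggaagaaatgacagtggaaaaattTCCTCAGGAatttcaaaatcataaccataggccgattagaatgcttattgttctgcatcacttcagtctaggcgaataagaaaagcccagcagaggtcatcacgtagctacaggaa
LYS1 held 2 Gcn4 matches, and LYS2, LYS12 and LYS14 held 1 each, so that 4 of the 9 members had 1 or more, against 7.74% of 6006 genes. LYS9 held 2 Lys14 matches, and LYS1, LYS12 and LYS14 held 1 each, again 4 of 9, against 3.15% of 6006 genes. Neither pattern overlapped the other in these windows, and LYS4, LYS5, LYS20 and LYS21 had no match to either in this window. With 600 bases searched, LYS20 and LYS21 each had 1 Lys14 match, printed with 16 bases on either side, 574 to 566 bases (LYS20, chrIV:132847-132887, plus strand) and 330 to 322 bases (LYS21, chrIV:227047-227087, plus strand) before the start codon.
LYS20: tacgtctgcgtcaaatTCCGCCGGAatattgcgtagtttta
LYS21: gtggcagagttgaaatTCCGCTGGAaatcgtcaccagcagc
In 600 bases, 4 of 9 members held the Gcn4 letters, against 15.3% of 6004 genes, and 6 of 9 the Lys14 letters, against 7.5%. LYS1 and LYS14 had further Gcn4 matches there, 570 to 565 and 540 to 535 bases before the start codon. A match is only a match of letters, and binding was not measured.

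The 9 genes lie on 5 chromosomes, each as 1 uninterrupted coding exon with no annotated gene overlapping it: LYS20 (YDL182W, chrIV:133437-134723), LYS21 (YDL131W, chrIV:227393-228715), LYS4 (YDR234W, chrIV:931129-933210), LYS14 (YDR034C, chrIV:509737-512109), LYS12 (YIL094C, chrIX:186517-187632), LYS1 (YIR034C, chrIX:419615-420736), LYS2 (YBR115C, chrII:469748-473926), LYS5 (YGL154C, chrVII:215278-216096) and LYS9 (YNR050C, chrXIV:714048-715388). LYS20 and LYS21 matched at 91.6% of 1281 aligned coding bases. With uniquely mapped reads of 27 bases or slightly more, 50.7% of the 27-base windows of LYS20 and 52.0% of those of LYS21 occur once in the genome, against 100% in the other 7, so that the levels of these 2 are uncertain and may be too low. Lysine made up 5.51% (LYS5) to 8.41% (LYS20) of the members' codons, and the median over 5936 genes was 7.31%. AAA was 29.4% of the lysine codons in LYS9, 36.0% in LYS12, 36.1% in LYS20 and 36.4% in LYS21, all below the median of 58.8% over 5270 genes, while it was 69.2% in LYS1, 66.7% in LYS5, 63.5% in LYS14, 58.1% in LYS2 and 54.7% in LYS4.

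Recovered depth was 0.808 to 16.26 M reads (M, mega) in the footprint libraries and 3.76 to 14.1 M in RNA. Each deleted gene lay below every wild-type library in footprints and in RNA in 57 of 57 strains. MET17, which BY4741 lacks, was nevertheless present in both footprint libraries of pus7D (541 and 521 RPKM) and in the RNA libraries of pus7D (312), rit1D (311) and kti11D (155), while the highest value elsewhere was 7.75 in footprints and 0.814 in RNA, so these 5 libraries go against the background named in their labels. HIS3, whose mutant allele may keep part of the gene, had 72.4 to 653 RPKM in footprints and 37.6 to 219 in RNA, URA3 was listed at 0 in every footprint library, LEU2 stayed at or below 0.336 RPKM in footprints, the alpha-cell pheromone gene MF(ALPHA)1 at or below 3.15, and the a-cell pheromone gene MFA1 at or above 94.3. By the authors' deposited ratios, 56 strains fell into 3 processing sets, each with its own wild-type libraries, 11 strains in set 1, 39 in set 2 and 6 in set 3, and left dus2D unplaced. Wild-type footprints of some members differed between sets, with a mean LYS20 level of 176 RPKM in set 1, 161 in set 2 and 139 in set 3, and a fit with the set as a term is given where it changed a call. In these bulk cultures RPKM is a share of all reads, and less RNA per cell cannot be told apart from fewer cells that carry it.

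In wild type the 7 enzymes of the pathway steps had medians from 68.3 RPKM (LYS1) to 197 (LYS12) in footprints, and LYS14 and LYS5 lay well below them. LYS12 had 149, 197 and 220 RPKM (lowest, median and highest of 14 libraries), LYS9 157, 175 and 189, and LYS20 123, 160 and 189. LYS21 followed at 81.6, 95.0 and 105, LYS2 at 74.7, 82.4 and 90.7, LYS4 at 64.7, 71.8 and 97.2, and LYS1 at 60.6, 68.3 and 75.1. The activator gene LYS14 lay at 11, 13.1 and 17.8, and LYS5, the gene for the enzyme that arms LYS2, at 1.86, 5.35 and 11.7. The ranges of LYS12, LYS9 and LYS20 overlapped one another, each range from LYS21 down to LYS1 overlapped its neighbour, and LYS14 stood apart from the enzymes above it, while its lowest library lay under the highest of LYS5. Within libraries every neighbour in this order differed by a two-sided exact permutation test that flips signs over 14 libraries, with p-values adjusted over the 8 neighbouring pairs, from LYS12 over LYS9 (log2 difference 0.13, SD 0.19, higher in 11 of 14 libraries, adjusted p = 0.0281) to LYS1 over LYS14 (2.25, SD 0.21, 14 of 14, adjusted p = 0.000244, from the smallest p that 14 libraries allow). The order of some pairs was not the same in each processing set: in set 2 LYS9 had a higher mean than LYS12 (179 and 165 RPKM) and LYS4 than LYS2 (82.7 and 78.7), and in set 1 LYS1 (68.6) lay slightly above LYS4 (67.9). The test over 14 libraries mixes the sets, so the order of LYS12 and LYS9, of LYS2 and LYS4 and of LYS4 and LYS1 did not hold in every set. Here and in RNA below, the order was ranked by means of the libraries tested. The pairs and their direction were thus taken from the same data. LYS20 exceeded its copy LYS21 by 0.77 (SD 0.13) in 14 of 14 libraries.

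**Figure D1:**
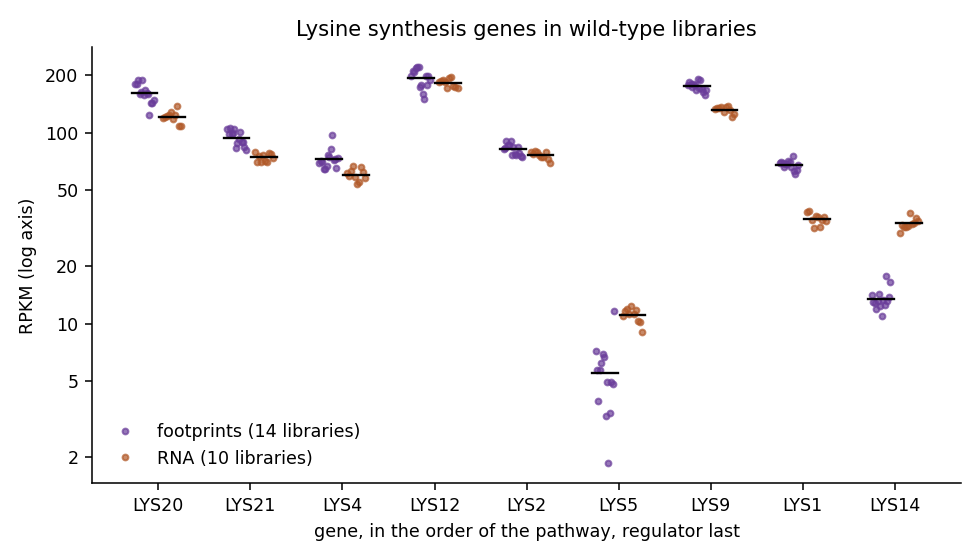
RPKM (log axis) of the 9 genes in each wild-type library, footprints in purple (14 libraries) and RNA in brown (10 libraries), with a bar at the mean. LYS1 lies higher in footprints than in RNA, and LYS14 and LYS5 lie lower.

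The order in RNA was alike but not the same. LYS12 had a mean of 182 RPKM (SD 8.85, n = 10), LYS9 132 (SD 5.72), LYS20 121 (SD 8.68), LYS2 76.2 (SD 3.39), LYS21 74.2 (SD 3.45) and LYS4 60.4 (SD 4.21). LYS1 at 35.4 (SD 2.30) and LYS14 at 33.5 (SD 2.22) could not be ordered (log2 difference 0.08, higher in 6 of 10 libraries, two-sided exact permutation test, adjusted p = 0.121), nor could LYS2 and LYS21 (0.04, 6 of 10, adjusted p = 0.205). LYS5 came last at 11.1 (SD 0.97). The ratio of mean footprints to mean RNA was 1.91 for LYS1, the last enzyme, at the 92.4th percentile of 4220 genes, and 0.405 for LYS14, at the 1.97th percentile, with 0.500 for LYS5. The other 6 lay between 1.06 (LYS12) and 1.33 (LYS20), around the median of 1.07 over those genes.

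Across single strains the 8 members with a mean of at least 10 RPKM in footprints were tested, and LYS5 was not, with 3 to 145 reads per footprint library (median 13). In limma over all genes tested, 157 of 448 member-by-strain tests passed an adjusted p of 0.05, 141 higher and 16 lower than wild type, where 16.3% of all 239736 gene-by-strain tests passed (10.2% higher and 6.17% lower). LYS1 was higher in 23 of 56 strains and lower in none, with changes from -0.22 to 3.52 on the log2 scale. LYS2 was higher in 22 strains and lower in 1, LYS4 higher in 20 and lower in 1, LYS20 higher in 19 and lower in 4, LYS21 higher in 18 and lower in 3, LYS12 higher in 17 and lower in 1, and LYS9 higher in 16 and lower in 4. LYS14 moved least, higher in 6 strains and lower in 2, with changes from -0.43 to 0.58. There were 21 strains with at least 5 of 8 members called in either direction (limma). In these, 5.98% (rit1D) to 71.9% (gon7D) of all genes were called. For bud32D and gon7D 5 of 8 members stood against 66.6% and 71.9% of genes, and in trm112D 6 of the 7 calls were lower. Another 28 strains had no member called. There, 29 of 224 member tests had an unadjusted p under 0.05, as did 22581 of the 119868 tests over all genes. In those 28 strains the median over the 8 members lay between -0.18 and 0.18, and 0.0234% to 19.3% of all genes were called.

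**Figure D2:**
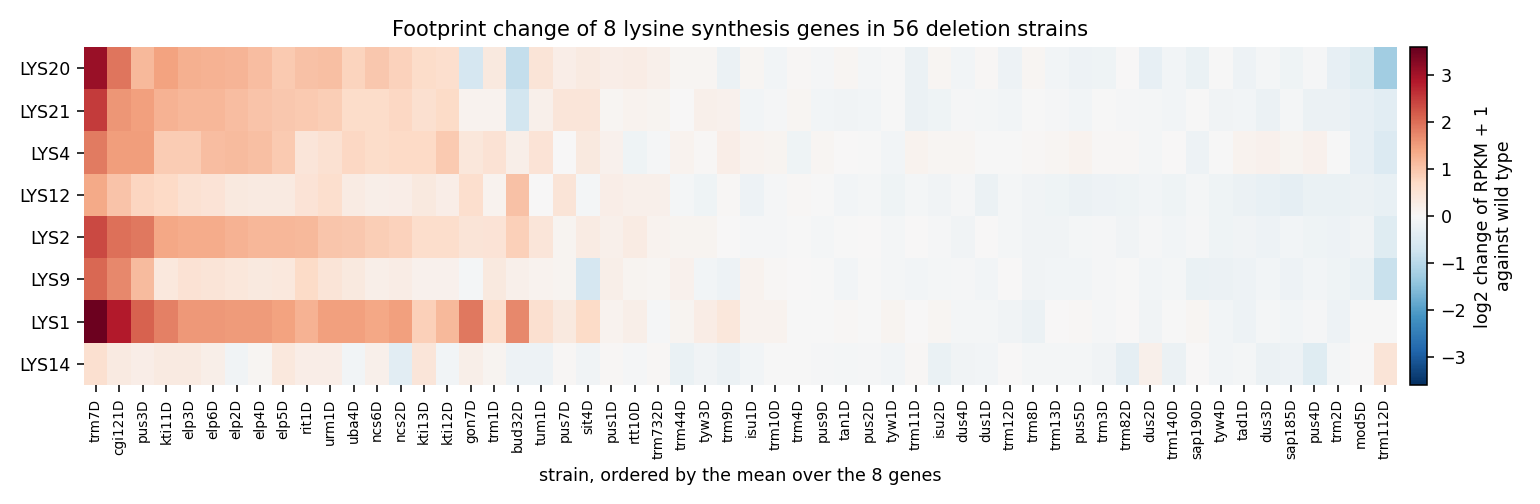
Change of footprints against wild type (log2 of RPKM + 1, color) for 8 genes in rows, in pathway order with LYS14 last, and 56 of the 57 strains in columns, ordered by the mean over the 8 genes; kti13D rests on 1 library. The changes run from 3.52 (LYS1 in trm7D) to -1.25 (LYS20 in trm112D), and bud32D and gon7D are blue for LYS20 while red for LYS1.

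The largest changes of LYS1, LYS2, LYS4, LYS9, LYS12, LYS14, LYS20 and LYS21 alike were in trm7D, whose missing enzyme methylates riboses in the anticodon loop of tRNA. LYS1 had 777 and 793 RPKM in its 2 libraries, LYS20 1357 and 1441, and LYS21 522 and 564. LYS9 had 714 and 751, LYS2 403 and 449, LYS12 483 and 506, and LYS4 270 and 262. All of these lay far outside the wild-type ranges. Even LYS5, untested, had 16.8 and 12 against at most 11.7 in wild type, and LYS14 had 20.7 in both. On the log2 scale the rise was 3.52 (SE 0.10) for LYS1, 3.12 (SE 0.12) for LYS20, 2.52 (SE 0.08) for LYS21, 2.37 (SE 0.08) for LYS2, 2.06 (SE 0.08) for LYS9, 1.86 (SE 0.11) for LYS4, 1.37 (SE 0.09) for LYS12 and 0.58 (SE 0.11) for LYS14. All 8 passed (limma, largest adjusted p = 1.27e-05, for LYS14), where 47.6% of genes were called in trm7D. GCN4 had 1006 and 1156 RPKM there against 23.4 to 134 in wild type.

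Most members were also higher in cgi121D, pus3D, rit1D and trm1D. In cgi121D, which lacks a KEOPS subunit, all 8 rose (34.0% of genes called), from 0.33 (LYS14) to 2.85 (LYS1), with LYS1 at 479 and 513 RPKM and LYS20 at 575 and 655. The LYS14 call was lost with the processing set as a term (0.17, adjusted p = 0.337). In pus3D, which lacks a pseudouridine synthase of the anticodon stem and loop, 7 of 8 rose (36.4% of genes called), LYS1 by 2.11 (SE 0.10), LYS2 by 1.91 (SE 0.08) and LYS4 by 1.51 (SE 0.11), while LYS14 stood at 0.24 (SE 0.11, adjusted p = 0.0882). In rit1D, which lacks the enzyme that marks initiator tRNA, 7 of 8 rose where 5.98% of genes were called. LYS1 reached 153 and 173 RPKM there, LYS2 184 and 185, and LYS20 331 and 335, all above every wild-type library. In trm1D, which lacks a guanosine dimethyltransferase, 5 of 8 rose where 9.44% of genes were called, with LYS1 at 0.63 (SE 0.10) and LYS4 at 0.53 (SE 0.11). With the processing set as a term the trm1D calls of LYS4 (0.35, adjusted p = 0.115) and LYS20 (0.35, adjusted p = 0.128) were lost, LYS20 also with median centring, quantile normalization, no filter or without wild-type library 11, and with 1 of the 2 libraries left out LYS4, LYS9 and LYS20 were lost each time and LYS2 without library 1. In rit1D LYS4 and LYS12 were lost when either library was left out.

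In the Elongator strains footprints of the 8 genes tested were higher than in wild type, while LYS5, not tested, had a median of 5.40 RPKM against 5.35 and no library above the wild-type range. LYS1 had 124, 199 and 261 RPKM (lowest, median and highest of 17 libraries), LYS2 124, 194 and 225, and LYS20 240, 369 and 495. LYS21 had 140, 204 and 234, LYS4 119, 141 and 168, and LYS9 191, 233 and 254. Each of these 17 libraries lay above every wild-type library for these 6 genes, and 16 of 17 did so for LYS12. Against wild type, LYS1 rose by 1.45 (SE 0.05) on the log2 scale, LYS2 by 1.14 (SE 0.04), LYS20 by 1.08 (SE 0.06), LYS21 by 1.02 (SE 0.04) and LYS4 by 0.97 (SE 0.05). LYS12 rose by 0.43 (SE 0.04), LYS9 by 0.36 (SE 0.04) and LYS14 by 0.18 (SE 0.05, adjusted p = 0.00394). All 8 passed in limma (for the other 7 the largest adjusted p was 3.0e-13), where 54.5% of 4281 genes did, 36.4% higher (1559 higher and 776 lower, and 1063 and 1242 with median centring). The median over the 8 members was 0.99, against 0.06 over all genes tested. The LYS14 call was lost with median centring (0.10) and with library 1 or library 2 of each strain left out (0.14 and 0.18). The strains were not alike: LYS1 had 141 and 165 RPKM in kti12D and 124 in the single kti13D library, against 184 to 261 in the libraries of the other 7 strains. These SEs measure the spread between libraries of a strain, not between strains.

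In the thiolation strains 7 of the 8 genes were higher than in wild type. LYS1 had 95.7, 182 and 209 RPKM (lowest, median and highest of 10 libraries), LYS2 110, 155 and 175, and LYS20 215, 289 and 342. LYS4 had 95.0, 115 and 127, LYS9 187, 208 and 258, and LYS12 182, 231 and 295. All 10 libraries lay above wild type for LYS1, LYS2, LYS20 and LYS21, 9 of 10 for LYS4 and LYS9, and 6 of 10 for LYS12. LYS1 rose by 1.28 (SE 0.06), LYS2 and LYS20 by 0.83 each (SE 0.04 and 0.06), LYS4 and LYS21 by 0.63 each (SE 0.06 and 0.04), LYS9 by 0.29 (SE 0.04) and LYS12 by 0.27 (SE 0.05). LYS14 stood at -0.04 (SE 0.06, adjusted p = 0.579). The largest adjusted p of the 7 was 4.92e-06 (limma), where 48.6% of genes passed, 28.3% higher (1212 higher and 868 lower, and 925 and 1215 with median centring). The LYS12 call was lost with library 1 of each strain left out (0.21, adjusted p = 0.0692). The lowest LYS1 levels of the group were those of tum1D, 108 and 95.7 RPKM.

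**Figure D3:**
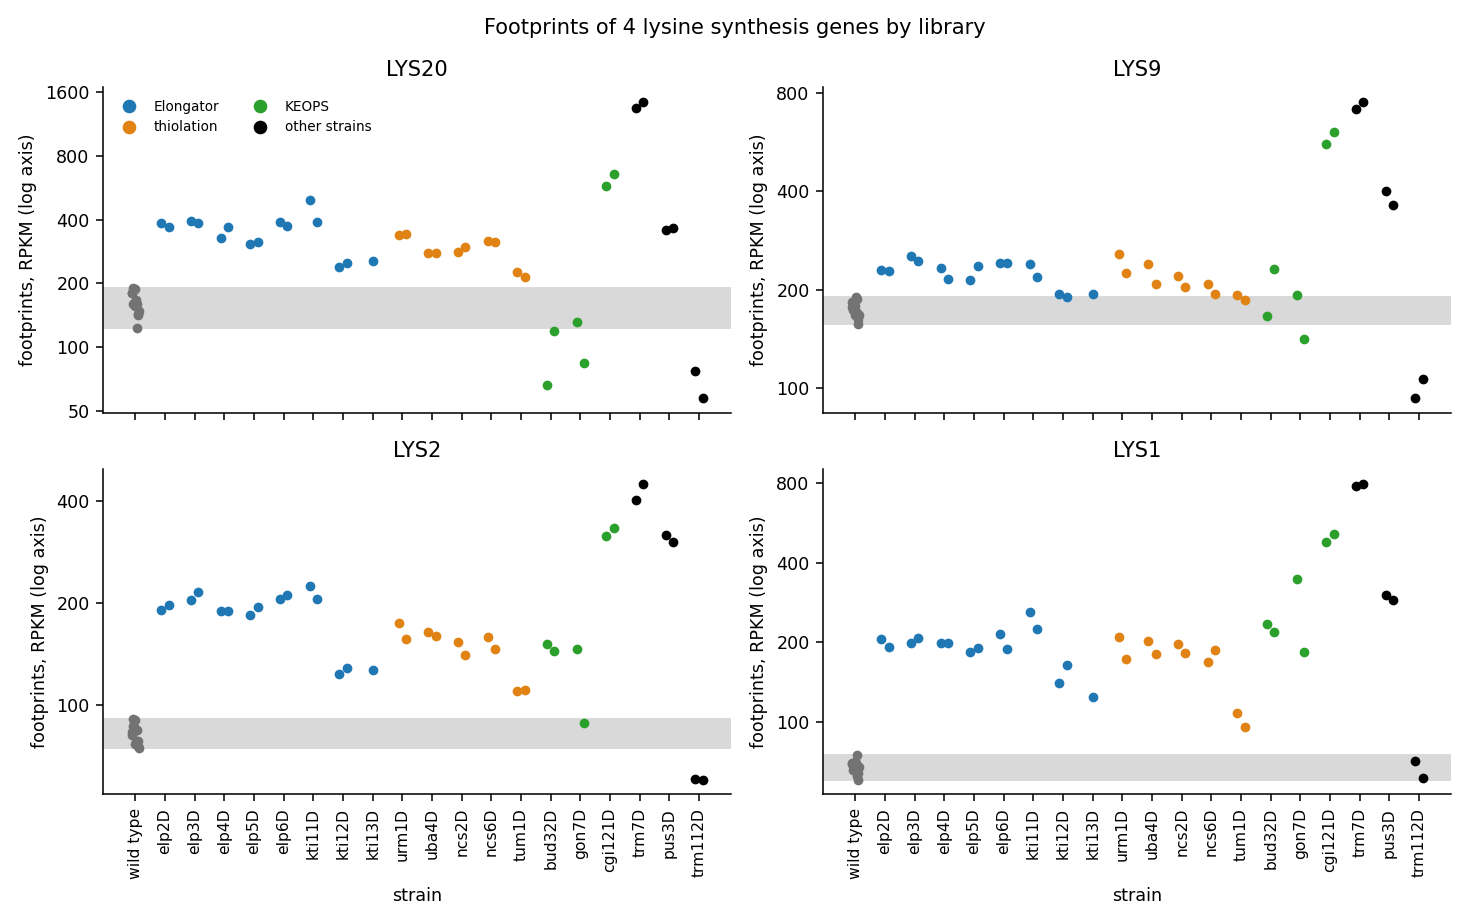
Footprints in RPKM (log axis) of LYS20, LYS9, LYS2 and LYS1 in wild type (14 points, grey band from lowest to highest) and in each library of the Elongator (blue, 8 of the 9 strains), thiolation (orange) and KEOPS (green) strains and of trm7D, pus3D and trm112D (black). Both libraries of bud32D lie below the band for LYS20 and above it for LYS1, while LYS20 in trm7D reaches 1441.

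The difference between both groups was tested directly. Elongator exceeded thiolation for 7 of 8 members, where 25.4% of genes differed (17.2% higher in Elongator, 738 higher and 350 lower, and 484 and 472 with quantile normalization), by 0.39 (SE 0.04) for LYS21, 0.34 (SE 0.06) for LYS4, 0.31 (SE 0.04) for LYS2, 0.25 (SE 0.06) for LYS20, 0.22 (SE 0.06) for LYS14, 0.17 (SE 0.06) for LYS1 and 0.15 (SE 0.05) for LYS12 (limma, adjusted p from 9.67e-12 to 0.0163). LYS9 differed by 0.08 (SE 0.04, adjusted p = 0.182). As in every group comparison of footprints here, SEs and p-values measure the spread between libraries of a strain, not between strains. LYS1 stood at 0.58 in tum1D against 1.38 (ncs6D) to 1.48 (uba4D) in the other thiolation strains. With the processing set as a term 5 of 8 passed, with LYS12 at 0.06 (adjusted p = 0.470) and LYS14 at 0.15 (adjusted p = 0.124), and 350 genes were higher and 260 lower. LYS1 was also lost with median centring (adjusted p = 0.0515), LYS1 and LYS12 without kti11D, and LYS14 without ncs2D. Without tum1D 4 of 8 passed, and LYS1 then stood at -0.003 (SE 0.06). With library 1 or library 2 of each strain left out, 4 and 3 of 8 passed. The authors' deposited table of codon frequencies at the ribosomal A site gives, for AAA, a median log2 change of 0.244 over 17 Elongator libraries and 0.334 over 10 thiolation libraries, against 0.003 over 13 wild-type libraries. For AAG the medians were -0.116, -0.067 and 0.003. The part of these codon shifts in the members' footprints was not tested.

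The 3 KEOPS strains differed from one another. LYS1 had 236 and 218 RPKM in bud32D, 347 and 184 in gon7D, and 479 and 513 in cgi121D. All 6 lay above every wild-type library, and LYS12, with 234 to 420 RPKM, did the same. LYS20 had 65.9 and 119 in bud32D, 132 and 84.0 in gon7D, and 575 and 655 in cgi121D, so that 3 libraries lay below the wild-type range of 123 to 189, 2 above it and 1 inside. LYS21 had 54.8 and 64.3 in bud32D, 122 and 86.7 in gon7D, and 278 and 293 in cgi121D. Against wild type LYS20 fell by 0.85 (SE 0.12) in bud32D and by 0.60 (SE 0.12) in gon7D and rose by 1.93 (SE 0.12) in cgi121D, where 66.6%, 71.9% and 34.0% of genes were called in the same order (limma, adjusted p = 1.70e-09, 5.63e-06 and 1.17e-24). LYS1 rose in the same strains by 1.73, 1.89 and 2.85 (SE 0.10 each). With the processing set as a term LYS20 stood at -0.64 in bud32D and -0.40 in gon7D (adjusted p = 8.24e-06 and 0.0042). Without library 2, LYS20 in gon7D stood at -0.28 and was not called (adjusted p = 0.169).

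As a group, KEOPS strains had 6 of 8 members called, all higher, where 74.0% of genes were called (49.9% higher, 2138 higher and 1031 lower, and 1348 and 1653 with median centring). LYS1 rose by 2.16 (SE 0.07), LYS2 by 1.10 (SE 0.05), LYS12 by 0.89 (SE 0.06), LYS4 by 0.70 (SE 0.07), LYS9 by 0.61 (SE 0.05) and LYS21 by 0.36 (SE 0.05), while LYS20 stood at 0.16 (SE 0.08, adjusted p = 0.0527) and LYS14 at 0.12 (SE 0.07, adjusted p = 0.118). Without cgi121D, LYS20 stood at -0.73 and LYS21 at -0.26 and both were then called lower, and LYS9 dropped out of the calls at 0.05. With the processing set as a term LYS20 was called higher (0.36, adjusted p = 0.000497). The A-site change of AAA in the authors' deposited table had a median of -0.119 over the 6 KEOPS libraries. All genes together were 0.17 higher in the median in this group, so members under that size did not exceed the shift.

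**Figure D4:**
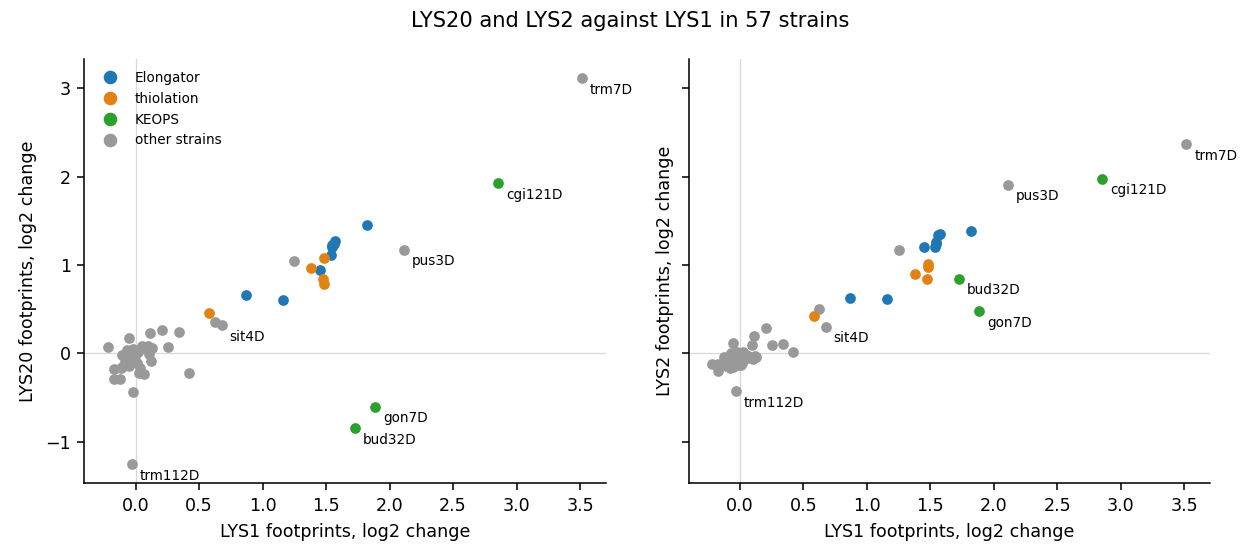
Footprint changes (log2 of RPKM + 1) of LYS20 (left) and LYS2 (right) against that of LYS1, 1 point per strain for 57 strains. In the left panel bud32D (1.73, -0.85) and gon7D (1.89, -0.60) lie below 0 for LYS20, far from cgi121D (2.85, 1.93), and trm112D is at -0.03 and -1.25.

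Few strains had members below wild type. In trm112D, which lacks a small activator shared by several methyltransferases, 6 of 8 fell where 70.8% of genes were called (13.9% lower). LYS20 had 77.3 and 57.5 RPKM and LYS9 93.5 and 107, both below every wild-type library. They fell by 1.25 (SE 0.12) and 0.80 (SE 0.08) on the log2 scale. These libraries held 1.77 and 0.808 M reads, with 176 and 60 reads of LYS20, and library 2 was the shallowest of all footprint libraries. LYS4 fell by 0.49 (SE 0.11), LYS2 by 0.43 (SE 0.08), LYS21 by 0.37 (SE 0.08) and LYS12 by 0.27 (SE 0.09). LYS1 stayed at 71.6 and 61.5 RPKM, within the wild-type range (-0.03, adjusted p = 0.824), and LYS14 rose by 0.46 (SE 0.11), a call lost with median centring (0.11), since all genes together were 0.35 higher in the median there. The LYS12 call was lost with the processing set as a term (-0.06) and without either library, the LYS14 call without library 1 and the LYS21 call without library 2. In sit4D, which lacks a phosphatase that Elongator activity needs, LYS9 fell to 118 and 113 RPKM (-0.59, SE 0.08) while LYS1, LYS2, LYS4, LYS20 and LYS21 rose by 0.30 to 0.68, where 50.6% of genes were called. The sit4D calls of LYS4 (0.24, adjusted p = 0.104) and LYS20 (0.22, adjusted p = 0.141) were lost with median centring, LYS4 also with the processing set as a term (0.16, adjusted p = 0.288), LYS20 without either library, and LYS2 and LYS4 without library 1. In mod5D, which lacks the tRNA isopentenyl transferase, LYS20 fell by 0.44 (SE 0.12), LYS21 by 0.30 (SE 0.08) and LYS9 by 0.25 (SE 0.08), where 19.3% of genes were called, and LYS1 stood at -0.02.

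GCN4 footprints rose in strains with large rises of the members and in some where few members passed. GCN4 rose by 4.91 (SE 0.26) in trm7D, 4.34 in pus3D, 4.10 in cgi121D, 2.89 in gon7D and 2.69 in rit1D. In pus7D, which lacks a pseudouridine synthase, it rose by 2.00 (SE 0.26) with 135 and 150 RPKM, and 3 of 8 members were called (6.63% of genes), LYS12 at 0.46, LYS21 at 0.45 and LYS1 at 0.34. Both pus7D libraries are among those with MET17. In mod5D GCN4 rose by 1.10 (SE 0.26), with 3 members lower and none higher. In sit4D 5 of 8 members were higher (50.6% of genes called) while GCN4 was not called (0.37, limma, adjusted p = 0.237). In tum1D 4 of 8 were higher (12.6% of genes called), with GCN4 at 0.57 (adjusted p = 0.130). GCN4 fell by 0.76 (adjusted p = 0.0074) in trm112D. Wild-type library 11 had a GCN4 level of 134 RPKM against 23.4 to 48.9 in the other 13. It is part of the wild-type reference and of the spread behind these GCN4 values. Every thiolation library, those of tum1D included, had at least 50.1 RPKM of GCN4, above those 13. Without library 11, 158 of 448 member tests passed, while its effect on the GCN4 calls is not given.

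Many of the strains with higher footprints also had higher RNA of these genes. In trm7D, LYS1 had 255 RPKM, LYS20 563, LYS9 407 and LYS2 279, in cgi121D 216, 429, 411 and 283, and in pus3D 151, 271, 276 and 257, all above every one of the 10 wild-type RNA libraries. A strain has 1 RNA library, so it was only asked whether a gene lay outside the wild-type range and at least 2-fold from its mean, with no test. That held for 48 of 513 member-by-strain values, all higher, where it held for 1.00% of all values. LYS1 passed in 16 of 57 strains, LYS2 in 11, LYS20 in 10, LYS21 in 5, LYS4 and LYS9 in 3 each, and LYS5, LYS12 and LYS14 in none. In bud32D LYS20 RNA was 60.7 RPKM and LYS21 41.8, below wild type (108 to 138 and 70.3 to 79.0) but short of 2-fold (-0.98 and -0.81). In trm112D LYS20 had 69.8 and LYS9 75.0, again below every wild-type library and short of 2-fold. In rit1D LYS1 RNA was 54.5 RPKM, 0.61 above wild type on the log2 scale where its footprints were 1.25 above, and that RNA library carries MET17 while the rit1D footprint libraries do not.

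With strains as replicates, the Elongator group had 7 of 9 members higher in RNA where 28.9% of 5033 genes were called (17.8% higher). LYS1 had 62.4, 95.1 and 117 RPKM (lowest, median and highest of 9 strains) and LYS20 194, 256 and 304, all above wild type. LYS1 rose by 1.33 (SE 0.10), LYS20 by 1.05 (SE 0.20), LYS2 by 0.91 (SE 0.09), LYS21 by 0.83 (SE 0.14), LYS4 by 0.58 (SE 0.10), LYS9 by 0.43 (SE 0.13) and LYS12 by 0.30 (SE 0.04; limma, adjusted p from 3.01e-10 to 0.0160). LYS14 at 0.17 (SE 0.07, adjusted p = 0.0851) and LYS5 at -0.02 (SE 0.08, adjusted p = 0.879) did not pass. The count was 7 of 9 without kti11D too. The thiolation group had 5 of 9 members higher where 20.2% of genes were called (14% higher, 704 higher and 311 lower, and 438 and 398 with median centring): LYS1 by 1.10 (SE 0.12), LYS20 by 0.81 (SE 0.24), LYS2 by 0.62 (SE 0.10), LYS21 by 0.50 (SE 0.17) and LYS12 by 0.25 (SE 0.05). Without ncs6D it was 3 of 9, as LYS20 (adjusted p = 0.0516) and LYS21 (0.0913) were lost. The LYS21 call was also lost with median centring (adjusted p = 0.0881), quantile normalization (0.117) or the processing set as a term (0.0760), and without urm1D, uba4D or ncs2D. In the Elongator group the LYS9 call was lost with quantile normalization (0.34, adjusted p = 0.0573).

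In the KEOPS group 7 of 9 members were higher in RNA where 65.6% of genes were called (48.4% higher, 2434 higher and 869 lower, and 1166 and 1759 with median centring). LYS1 had 131, 158 and 216 RPKM in bud32D, gon7D and cgi121D, and LYS2 174, 189 and 283. LYS1 rose by 2.19 (SE 0.15), LYS2 by 1.46 (SE 0.12), LYS12 by 0.83 (SE 0.06), LYS14 by 0.68 (SE 0.10) and LYS5 by 0.56 (SE 0.11), and LYS9 (0.48) and LYS4 (0.34) passed narrowly (limma, adjusted p = 0.0291 and 0.0466). LYS5, the arming enzyme's gene, had 14.8, 18.0 and 17.7 RPKM, above the wild-type range of 9.07 to 12.3. LYS20 (60.7, 94.1 and 429) and LYS21 (41.8, 90.2 and 180) did not pass. The calls of LYS9 and LYS4 were lost with median centring (0.24 and 0.09) and without cgi121D, where they stood at -0.10 and -0.04 and LYS20 was called lower at -0.67.

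**Figure D5:**
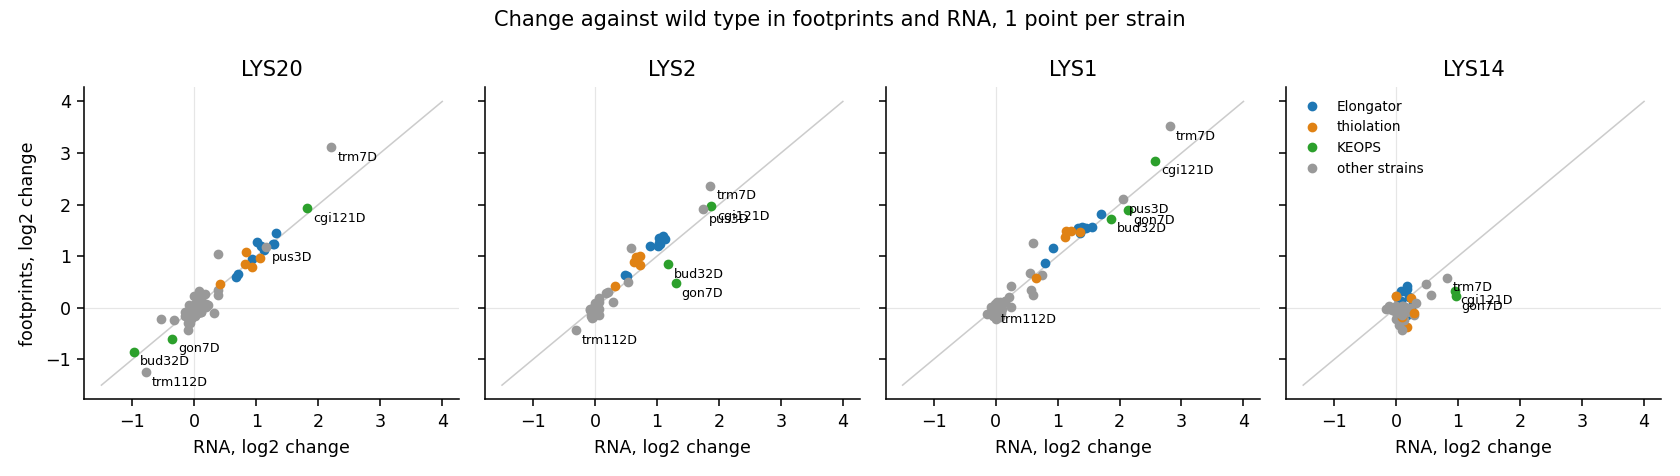
Change in footprints against change in RNA (log2 of RPKM + 1, against wild type), 1 point per strain for LYS20, LYS2, LYS1 and LYS14, with a grey line where both are equal. LYS1 in trm7D is at 2.82 in RNA and 3.52 in footprints, and LYS14 in gon7D is at 0.96 in RNA and 0.22 in footprints.

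Translational efficiency, footprints relative to RNA, was compared through an assay-by-group interaction term. None of the 8 members passed in the Elongator group, where 0.303% of 4288 genes did, or in the thiolation group, where 0% did (limma; at an unadjusted p under 0.05 there was 1 of 8 in each group, LYS4, and 335 and 343 of 4288 genes). LYS4 stood at 0.40 (SE 0.15, adjusted p = 0.381) and 0.38 (SE 0.18, adjusted p = 0.597), and LYS1 at 0.16 (SE 0.17) and 0.18 (SE 0.19). In the KEOPS group LYS14 fell by 0.55 (SE 0.16, adjusted p = 0.0191), where 8.72% of genes were called, and the call was lost without gon7D (-0.46). GCN4 stood at 1.55 (SE 0.28, adjusted p = 0.000673) in the Elongator group, at 1.12 (SE 0.33, adjusted p = 0.367) in the thiolation group and at 2.22 (SE 0.39, adjusted p = 4.73e-05) in the KEOPS group.

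Other genes of lysine use were followed as a list of 13, of which 10 passed the filter in footprints. In the Elongator group 6 of 10 were higher and none lower (median 0.19, against 0.06 over all genes), in the thiolation group 6 higher and 1 lower (0.17, against 0.03), and in the KEOPS group 6 higher and 2 lower (0.24, against 0.17). Beside this list and the one below, 54.5%, 48.6% and 74.0% of all genes were called in these groups. The shares called higher were 36.4%, 28.3% and 49.9%. ARO8, an aminotransferase, rose by 0.49, 0.34 and 0.37 in the 3 groups in that order, and ODC2, a mitochondrial 2-oxoadipate carrier, by 1.01, 0.60 and 1.52. LYP1, the lysine permease, rose by 0.31 in the Elongator group and by 0.19 in the thiolation group and fell by 0.28 (SE 0.04) in the KEOPS group. KRS1, the cytosolic lysyl-tRNA synthetase, rose by 0.22 and 0.23 in the Elongator and thiolation groups. In the KEOPS group KRS1 stood at 0.10, under the median of 0.17 over all genes there. Of 36 other amino acid synthesis genes, all measured, 30 were higher and 3 lower in the Elongator group (median 0.40), 22 and 5 in the thiolation group (median 0.17), and 36 and 0 in the KEOPS group (median 0.99). The members' medians beside these were 0.99, 0.63 and 0.66.

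Likeness across strains was described over 57 strains, whose changes share the same 14 wild-type libraries. Among the genes whose footprint change ran closest to the mean over the 8 members, of 4281 genes, were TRP2 of tryptophan synthesis (Pearson r = 0.97, Spearman rho = 0.84), the multidrug exporter gene ATR1 (0.94 and 0.74) and YHI9 (0.94 and 0.86), and for GCN4 the values were 0.91 and 0.80. Without trm7D and cgi121D, the 2 strains farthest from the median, r was 0.95, 0.91, 0.90 and 0.87 in the same order. Among members, LYS20 and LYS21 ran closest to each other (r = 0.96), which share part of their sequence, and LYS1 ran closest to LYS2 (r = 0.96). LYS9 was nearest to SER1 of serine synthesis (0.91), LYS12 to ARG7 of arginine synthesis (0.92) and LYS14 to CAF16 (0.78). LYS14 had the lowest values with each of the other 7 members, from 0.48 (LYS4) to 0.60 (LYS12). LYS1 and LYS20 stood at 0.80, and at 0.70 without the same 2 strains.

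The 6 drug-free libraries, 1 per strain, give values with no test. LYS1 had 984 RPKM in trm7D against 74.4 in wild type, a 13.2-fold ratio, LYS20 1471 against 193 (7.64-fold), LYS21 674 against 108 (6.25-fold) and LYS9 828 against 196 (4.23-fold). LYS14 had 15.3 against 11. In elp3D LYS1 had 219 RPKM (2.94-fold), LYS2 199 against 78.0 (2.55-fold) and LYS9 263 (1.34-fold). In tan1D, which lacks a factor for tRNA acetylation, the 8 members other than LYS5 had ratios between 0.917 (LYS12) and 1.08 (LYS14). In tyw4D, which lacks a wybutosine methyltransferase, they lay between 0.964 (LYS14) and 1.2 (LYS1). In mod5D they ran from 0.784 (LYS20) to 1.31 (LYS14), with LYS4 at 0.804 and LYS1 at 1.12.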

How the data were processed

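Ribosome footprints and total RNA of yeast strains were measured by sequencing. RPKM values per gene were deposited by the authors, who used TopHat2 2.0.12, HOMER 4.6, SAMtools and build sacCer3, per the submitters' processing notes. Per the labels and series text, reads of 27 bases (RNA) or 27 to 34 bases (footprints) that mapped uniquely were used. The deposited log2 ratio table of A-site codon frequencies holds the authors' own values and was only described, and the deposited ratios of strain to wild type served to find the processing sets. Whole reads were recovered from low RPKM steps, with 95.2% to 98.6% of low values whole within 0.1 reads (20% by chance), giving a depth of 0.808 to 16.26 M reads (M, mega) (footprints), 3.76 to 14.1 M (RNA) and 3.41 to 7.38 M (drug-free), so reads limit the precision of LYS5 most. Log2(RPKM + 1) was tested with limma 3.58.1 in R 4.3.3 (trended variance, Benjamini-Hochberg over the genes averaging 10 RPKM or more, threshold 0.05), 4281 genes in footprints, 5033 in RNA and 4288 in translational efficiency. A fold change on this scale understates changes of low genes. Footprints were fitted with 1 coefficient per strain over 127 libraries and group means were contrasts of strains. RNA groups used strains as replicates. Translational efficiency counted footprint libraries of a strain as separate samples. The methods were tested on simulated data. Sequences came from RefSeq build R64 (sacCer3), read with Python 3.11.15 and Biopython 1.88. All 9 members are named, with GCN4, the nearest genes by Pearson r, and up to 4 other lysine genes per comparison by adjusted p. Members and lists were chosen with earlier results of these data known. Alternatives were the pseudocount, filter, centring, quantile normalization, processing set, replicate block and leaving out libraries or strains; leaving out wild-type footprint library 11 was chosen after seeing the data. Some items are not reported here.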

Additional observations from a re-analysis of the deposited data

Results flagged for a closer look

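Among 27 group checks on the 9 genes, 3 RNA values stood far from the rest of their group, and chance flags about 1 in 20 groups. LYS5 RNA in kti13D was 7.49 RPKM, the lowest of the 9 Elongator strains. That value rests on 29 reads, against 66 (elp5D) to 124 (elp1D) in the other Elongator strains. In the thiolation group tum1D had the lowest LYS2 RNA (94.9 RPKM) and the lowest LYS12 RNA (199.98 RPKM) of 5 strains.

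The footprint change in the Elongator group exceeded that in the thiolation group, by a test of the difference itself (limma), by 0.17 for LYS1 (adjusted p = 0.0158), 0.31 for LYS2 (1.13e-08), 0.34 for LYS4 (1.21e-05), 0.15 for LYS12 (0.0163), 0.22 for LYS14 (0.0037), 0.25 for LYS20 (0.00155) and 0.39 for LYS21 (9.67e-12) on the log2 scale. Without tum1D 4 of 8 passed. With the processing set as a term LYS12 (0.06, adjusted p = 0.470) and LYS14 (0.15, adjusted p = 0.124) did not pass. The p-values measure the spread between libraries of a strain, not between strains.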

How the results depend on the processing

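Of the counts of members called, 150 recomputed values stayed within 1.5 times the first and 7 moved further. The count for Elongator against thiolation was 7 and ranged from 3 to 8 when a strain or replicate was left out (3 to 4 without a replicate). RNA in the thiolation group ranged from 3 to 5, translational efficiency in the KEOPS group from 0 to 2, and single RNA libraries past 1.5-fold numbered 95 in place of 48. Some directions reversed when a strain or replicate was left out. LYS4 in gon7D ranged from -0.079 to 0.87 over both replicates, and LYS1 in Elongator against thiolation from -0.0028 without tum1D to 0.29 without replicate 1. The other reversals came without cgi121D and the highest values without bud32D. In KEOPS footprints the ranges were -0.73 to 0.66 (LYS20) and -0.26 to 0.86 (LYS21). In KEOPS RNA they were -0.044 to 0.67 (LYS4), -0.096 to 0.77 (LYS9) and -0.67 to 0.73 (LYS20). Group values of footprints are means over strains, and LYS20 stood at -0.85 in bud32D, -0.60 in gon7D and 1.93 in cgi121D. Why these strains differed was not tested. For single values 154 calls were lost and 10 gained. Replicate numbers did not pair the libraries: deviations of library 1 of a strain and library 1 of wild type had a median correlation of 0.05 (-0.26 to 0.30). With the replicate number as a block 160 of 448 member tests passed in place of 157. Over all genes it was 54062 in place of 39194, and the Elongator and thiolation counts were 7 and 6 in place of 8 and 7. Only wild type had replicate numbers above 2, so this fit compared strains with wild-type libraries 1 and 2 alone. Its counts therefore do not test the result over all wild-type libraries. Depth limits LYS5, with a median of 13 reads per footprint library.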
